A study of Mus musculus with 6 samples.

Results

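The genes described here encode the collagens, laminins and other structural proteins of the extracellular matrix, the proteases that cut them, the inhibitors of those proteases, and the integrins and proteoglycans by which cells hold on to the matrix. They were taken as a list of 40 gene symbols out of 16590 genes named on the array. The rule matches symbols and uses no measured value, but the list was drawn up with earlier results of these data known. Of the 40, 37 had a probe with that symbol, with 48 probes in all. Fn1, Lama5 and Spp1 had no probe of that name in the platform annotation and are not analysed here.

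Their RNA was measured on 6 Illumina bead arrays of primary hepatocytes from male wildtype mice of a C57Bl6/J background, 10 weeks old. Cells had received the vehicle DMSO, KD3010 or GW1516, and each of the 3 groups held 2 arrays. Both compounds activate PPAR-delta, one of the nuclear receptors that switch on genes of fatty acid use. The series names liver fibrogenesis, the laying down of scar matrix, in its title. The labels name no dose, treatment time or number of animals. The arrays of a group are technical replicates per the labels, so errors and p-values reflect how far arrays differ and leave out the variation among cultures and animals.

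In the liver, fibrillar collagens (types I, III and V) form the fibres of scar tissue and come mainly from activated stellate cells. Type IV collagen, laminins and nidogen build sheet-like basement membranes. Cells contact matrix proteins through integrins and heparan sulfate proteoglycans. Matrix metalloproteinases cleave these proteins outside the cell, and the TIMP proteins inhibit the metalloproteinases.

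Basement membrane, receptor and protease genes were detected in these cells, and the probes of the fibrillar collagens were not. A probe was counted as detected when, in 1 group or more, both arrays gave it a deposited detection p-value below 0.05, which compares its brightness with that of negative control beads. By that rule 21 of the 40 genes were detected, through 27 of the 48 probes, and 20 of the 21 were detected on all 6 arrays. Another 13 genes were detected on no array. They were the fibrillar collagen genes Col1a1, Col1a2, Col3a1, Col5a1 and Col5a2, the beaded-filament collagen genes Col6a1 and Col6a2, the laminin beta chains Lamb1 and Lamb3, the protease Mmp2, the inhibitor Timp2, and the collagen cross-linking oxidases Lox and Loxl2.

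The values of Col1a1, which encodes the main chain of type I collagen, show what non-detection looked like. Its unnormalized bead intensity was 247.3 and 221 on the DMSO arrays, 247.7 and 226.5 on the KD3010 arrays, and 227.2 and 210.3 on the GW1516 arrays, with detection p-values between 0.232 and 0.751. Col1a2, the partner chain, read 246.3 and 225.5 with DMSO, 228.4 and 241.2 with KD3010, and 213.7 and 248 with GW1516. Both probes of Col3a1, the type III collagen gene, lay between 199.2 and 257. Every group overlapped DMSO in these 4 probes, and in 1 of the Col3a1 probes GW1516 (256.1 and 239.5) lay above KD3010 (234.4 and 236.5), all below detection. The median intensity of all undetected probes was 226.5 to 239.5 per array. The 19 probes of the 16 untested genes spanned 185.8 to 314.6, so these arrays give no level for those genes, only that they were not well above background.

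Lum, the gene of the small proteoglycan lumican, was detected on 3 single arrays, 1 in each group, and the laminin chain gene Lamb2 and the collagen-binding integrin gene Itga1 on 1 array each. None of these 3 genes passed the rule on both arrays of a group, and they were not tested. Itga2, another collagen-binding integrin subunit, was detected on both DMSO arrays and on no other array. It was therefore tested only through the group in which it was high, and any count below that holds it counts a gene that had to be lower elsewhere.

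**Figure D1:**
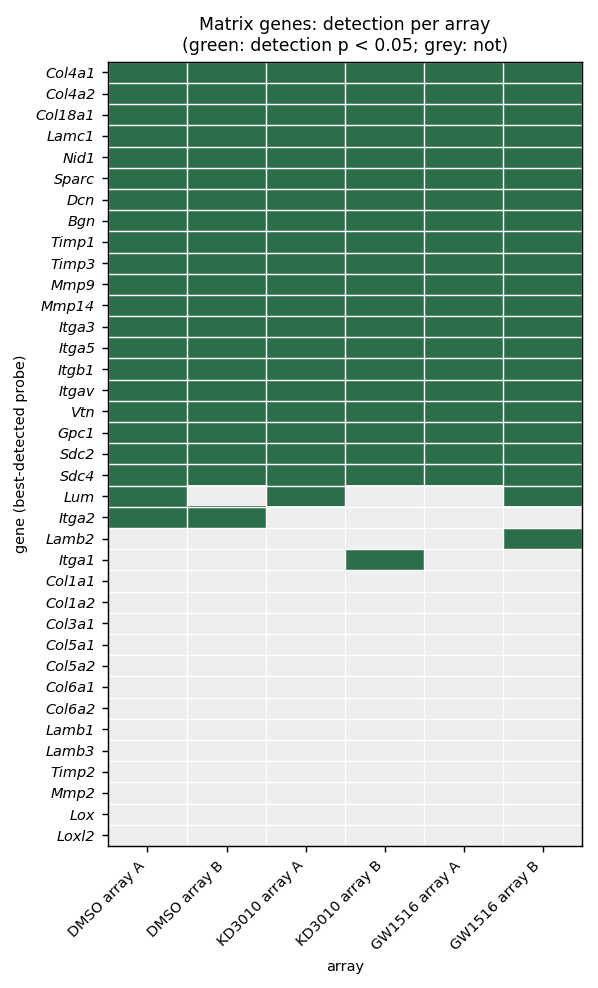
Detection of the 37 listed genes that had a probe (rows, the best-detected probe of each) on the 6 arrays (columns). Green cells have a detection p-value below 0.05 and grey cells do not. The 20 upper genes are green on all 6 arrays, and 13 genes, the fibrillar collagens among them, are grey throughout.

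Of 25697 probes, each array detected between 10239 and 10805, at mean intensities between 953.2 and 1157. Across the 8058 tested features, the correlation of array A with array B was 0.991 in the DMSO group, 0.9899 in the KD3010 group and 0.9893 in the GW1516 group. Array B of GW1516 correlated slightly better with array A of DMSO, at 0.9895, than with array A of its own group. Of the hepatocyte markers examined, 9 of 12 were detected on all 6 arrays, and the probes of Alb, Tat and Fgb were detected on none. Of 17 markers of stellate cells and fibroblasts, 3 were detected on all 6 arrays and 10 on none, among the latter Lrat, Pdgfrb, Pdgfra and Hand2. Sinusoidal endothelial markers were detected on all 6 arrays in 7 of 12 cases, Kupffer cell markers in 0 of 8 and cholangiocyte markers in 1 of 4.

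The levels below are log2 signals after background correction and quantile normalization, listed for array A and then array B of each group. They are comparable between arrays for 1 gene, not between genes. Differences are given with their standard error from limma's fit over all 6 arrays. A gene counted as changed at an adjusted p below 0.05 (Benjamini-Hochberg over the 8058 features) with at least a 1.5-fold difference. Since a culture with fewer cells of a type and one with less RNA per cell give the same signal, these cannot be told apart for any gene named here. An exact two-sided permutation test of 2 arrays against 2 cannot give a p below 0.333, so limma's test is the only one reported.

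By that rule 0 of the 21 tested genes changed with KD3010 against DMSO, where 0.124% of all features did, and 0 changed with GW1516, where 0.0869% did. Between the 2 compounds 0 of the 21 differed, and 0% of all features did. The genes therefore appear below with their values and adjusted p, and no direction given is a call. The plot of log2 signal by array shows all 21.

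**Figure D2:**
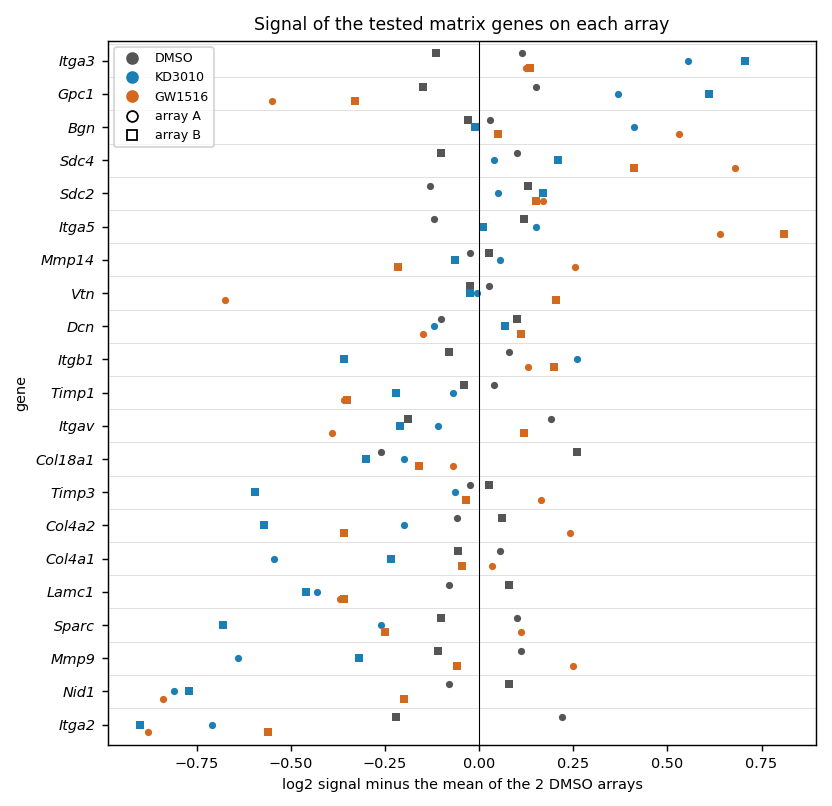
Log2 signal of the 21 tested matrix genes on each array, minus the mean of the DMSO arrays of that gene. Circles are array A and squares array B, in grey for DMSO, blue for KD3010 and orange for GW1516. Nid1, Lamc1, Itga2 and Timp1 lie left of both DMSO arrays with both compounds, and Gpc1 lies right of them with KD3010 and left of them with GW1516.

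The promoters of 4 genes with large differences are shown here, so that the letters upstream of them can be read beside the values that follow. They are the 4 with the largest absolute log2 difference in any comparison, among the genes detected in all groups, that have an entry in the RefSeq promoter table (mouse build GRCm38.p6). The 250 bases before the transcript start are printed 5′ to 3′ on the gene's strand. Capitals mark AGGTCA, the hexamer that nuclear receptors of the PPAR kind bind in pairs, and GGGCGG, the GC box, or CCGCCC where the GC box lies on the opposite strand. For Itga3, which has 2 entries, the more upstream start is used. Nid1 lies at chr13:13437352-13437601 (plus strand), Itga5 at chr15:103366792-103367041 (minus strand), Itga3 at chr11:95076715-95076964 (minus strand) and Sdc4 at chr2:164443189-164443438 (minus strand).
Nid1: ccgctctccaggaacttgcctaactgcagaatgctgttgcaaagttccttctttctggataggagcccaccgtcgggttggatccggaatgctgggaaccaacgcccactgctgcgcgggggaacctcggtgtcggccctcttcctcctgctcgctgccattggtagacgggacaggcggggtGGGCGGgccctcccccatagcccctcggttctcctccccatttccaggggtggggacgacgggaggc
Itga5: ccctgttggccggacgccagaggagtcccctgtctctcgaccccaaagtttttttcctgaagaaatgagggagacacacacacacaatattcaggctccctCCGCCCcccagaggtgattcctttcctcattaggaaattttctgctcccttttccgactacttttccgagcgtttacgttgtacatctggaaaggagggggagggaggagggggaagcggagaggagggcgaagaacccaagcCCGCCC
Itga3: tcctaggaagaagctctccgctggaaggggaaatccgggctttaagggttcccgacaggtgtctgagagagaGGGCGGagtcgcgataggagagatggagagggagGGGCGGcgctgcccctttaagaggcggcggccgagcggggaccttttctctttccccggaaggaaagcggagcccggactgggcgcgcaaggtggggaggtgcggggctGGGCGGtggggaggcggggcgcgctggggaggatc
Sdc4: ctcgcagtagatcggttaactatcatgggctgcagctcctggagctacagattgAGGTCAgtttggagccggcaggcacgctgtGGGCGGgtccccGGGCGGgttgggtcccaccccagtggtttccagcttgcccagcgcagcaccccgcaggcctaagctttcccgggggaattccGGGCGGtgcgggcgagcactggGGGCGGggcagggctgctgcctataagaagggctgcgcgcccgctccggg

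Among these 4 windows the GC box occurs 1 time in Nid1, 2 times in Itga5, 3 times in Itga3 and 4 times in Sdc4, and AGGTCA occurs in Sdc4 alone, 1 time. Searched on both strands over the same 250 bases, 12 of the 18 entries of the tested genes hold GGGCGG, against 32.7% of the 32851 promoters in the table, and 1 of 18 holds AGGTCA, against 14%. The paired form with 1 base between the hexamers, named DR1, was in 0 of the 18 and in 0.0335% of all promoters. The promoters in the table were not restricted to genes detected in these cells, as the 18 entries were, so the shares come from unlike sets. Each match describes letters only. Entries existed for 16 of the 21 tested genes.

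The 5 tested basement membrane genes among the 40 (Nid1, Lamc1, Col4a1, Col4a2 and Col18a1) had a lower mean with KD3010 than with DMSO, where 50.2% of all features did, and none passed the threshold. This group was formed with the values known, and its genes were read on the same arrays. It is therefore no test of a shared change. Col18a1 was at 0.02 without array B of DMSO. Basement membrane genes outside the 40, named after their values were seen, did not all lie lower: Hspg2, the perlecan gene, differed by -0.08 ± 0.24, Agrn, the agrin gene, by 0.01 ± 0.18 and Col7a1 by 0.29 ± 0.26. Col7a1 was near background, at 5.82 and 5.67 with DMSO and 6.48 and 5.59 with KD3010. It passed detection only through its GW1516 arrays. Nid1 encodes nidogen-1, the linker between laminin and type IV collagen. Its log2 signal was 9.69 and 9.85 with DMSO, 8.96 and 9 with KD3010, and 8.93 and 9.57 with GW1516. Both arrays of each compound lay below both DMSO arrays, while GW1516 array B sat much closer to DMSO than array A did. The difference from DMSO was -0.79 ± 0.21 for KD3010 (1.72-fold lower, adjusted p = 0.235 in limma's test). For GW1516 it was -0.51 ± 0.21 (1.43-fold lower, adjusted p = 0.501), and -0.20 without array A or -0.83 without array B of GW1516. With KD3010 it passed the threshold in 2 of 16 other ways of processing, with adjusted p between 0.0177 and 0.538 over all 16.

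Lamc1 encodes the laminin gamma-1 chain, which is part of most laminin trimers. Its signal was 10.13 and 10.29 with DMSO, 9.78 and 9.75 with KD3010, and 9.84 and 9.85 with GW1516. The 4 treated arrays lay close together and all below DMSO. The difference was -0.45 ± 0.16 with KD3010 (1.37-fold lower, limma adjusted p = 0.318) and -0.37 ± 0.16 with GW1516 (1.29-fold lower, adjusted p = 0.507). Between the compounds the difference was -0.08, with a 95% interval from -0.43 to 0.27.

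Col4a1 and Col4a2 encode the chains of the common type IV collagen trimer and share a promoter region. On GRCm38.p6 the RefSeq starts lie 21 bases apart on opposite strands of chr8. Col4a1 read 9.40 and 9.29 with DMSO, 8.80 and 9.11 with KD3010, and 9.38 and 9.30 with GW1516. KD3010 lay below the other groups, which overlapped each other, and its difference from DMSO was -0.39 ± 0.17 (1.31-fold lower, limma adjusted p = 0.406), or -0.23 without array A of KD3010. Col4a2 read 8.12 and 8.24 with DMSO, 7.98 and 7.61 with KD3010, and 8.42 and 7.82 with GW1516. KD3010 was again below DMSO, at -0.38 ± 0.22 (adjusted p = 0.54), and GW1516 spread on both sides of DMSO. The GW1516 differences from DMSO were -0.01 ± 0.17 for Col4a1 and -0.06 ± 0.22 for Col4a2.

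Col18a1 encodes the collagen whose C-terminal fragment is endostatin, and hepatocytes are a known source of it. It read 10.95 and 11.47 with DMSO, 11.01 and 10.91 with KD3010, and 11.14 and 11.05 with GW1516. The DMSO arrays spanned every treated value except array B of KD3010, just below them, and the 0.52 between them was the widest gap of any of the 21 genes within DMSO. The differences were -0.25 ± 0.20 for KD3010, which became 0.02 without array B of DMSO, and -0.11 ± 0.20 for GW1516. The dimmer Col18a1 probe gave -0.23 ± 0.21 and -0.03 ± 0.21.

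The matricellular protein and small proteoglycan genes gave a mixed picture. Sparc encodes osteonectin, a secreted collagen-binding glycoprotein. It read 8.69 and 8.49 with DMSO, 8.33 and 7.91 with KD3010, and 8.70 and 8.34 with GW1516. KD3010 lay below DMSO by -0.47 ± 0.20 on the log2 scale (1.39-fold, limma adjusted p = 0.394), and GW1516 overlapped DMSO (-0.07 ± 0.20). Without array B of KD3010 the first of these was -0.26. Its dimmer probe told otherwise, with -0.32 ± 0.25 for KD3010 and -0.69 ± 0.25 for GW1516 (adjusted p = 0.457) in a fit of all 10530 detected probes. The probes thus differ on which compound had the lower Sparc signal.

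Dcn encodes decorin, a small proteoglycan that binds collagen fibres and TGF-beta, and it is also in the stellate cell marker list. Its signal was 11.52 and 11.72 with DMSO, 11.50 and 11.69 with KD3010, and 11.47 and 11.73 with GW1516, so that the 3 groups overlapped fully on this brighter probe. Both its differences from DMSO were -0.02 ± 0.18, and the 95% intervals left room for -0.42 to 0.37 with KD3010 and -0.41 to 0.38 with GW1516. The dimmer Dcn probe read 9.87 and 9.87 with DMSO, 9.56 and 9.75 with KD3010, and 9.59 and 9.60 with GW1516. On it both compounds lay below DMSO, by -0.22 ± 0.16 and -0.27 ± 0.16 (limma adjusted p = 0.653 and 0.641). The related Bgn, the biglycan gene, differed by 0.20 ± 0.21 with KD3010 and 0.29 ± 0.21 with GW1516.

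Among the proteases, Mmp9 encodes gelatinase B, which cleaves type IV collagen and denatured collagens. It read 8.70 and 8.48 with DMSO, 7.95 and 8.27 with KD3010, and 8.84 and 8.53 with GW1516. Both KD3010 arrays lay below the other 4, which overlapped. KD3010 differed by -0.48 ± 0.19 from DMSO (1.40-fold lower, limma adjusted p = 0.373) and by -0.58 ± 0.19 from GW1516 (1.49-fold lower, adjusted p = 0.235). Mmp14, the membrane-bound collagenase that activates pro-MMP2, read 10.02 and 10.07 with DMSO, 10.10 and 9.98 with KD3010, and 10.30 and 9.83 with GW1516. No group stood apart for Mmp14, and its differences from DMSO were 0.00 ± 0.19 and 0.02 ± 0.19.

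The protease inhibitor Timp1 read 9.32 and 9.24 with DMSO, 9.21 and 9.06 with KD3010, and 8.92 and 8.93 with GW1516. The 3 groups did not overlap, with GW1516 lowest, at -0.35 ± 0.16 from DMSO (1.28-fold lower, limma adjusted p = 0.524) against -0.15 ± 0.16 for KD3010. The second Timp1 probe gave 0.15 ± 0.20 for GW1516 and -0.21 ± 0.20 for KD3010, so the GW1516 direction rested on the probe. Timp3, the inhibitor that stays bound to the matrix, read 8.46 and 8.51 with DMSO, 8.42 and 7.89 with KD3010, and 8.65 and 8.45 with GW1516. KD3010 array B alone was far from the rest, and the difference was -0.33 ± 0.20 for KD3010 and 0.07 ± 0.20 for GW1516.

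The integrin subunits, which pair into receptors for collagen, laminin and fibronectin, differed one by one. Itga3, the alpha subunit of a laminin receptor, was higher with KD3010. It read 9.47 and 9.24 with DMSO, 9.91 and 10.06 with KD3010, and 9.48 and 9.49 with GW1516. Both KD3010 arrays lay above the other 4. KD3010 differed by 0.63 ± 0.16 from DMSO (1.55-fold higher, limma adjusted p = 0.219) and by 0.50 ± 0.16 from GW1516 (1.41-fold higher, adjusted p = 0.235).

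Itga5, the alpha subunit of the classical fibronectin receptor, was higher with GW1516 by its brighter probe. That probe read 8.96 and 9.20 with DMSO, 9.23 and 9.09 with KD3010, and 9.72 and 9.89 with GW1516. Both GW1516 arrays lay above the other 4, while DMSO and KD3010 overlapped. GW1516 differed from DMSO by 0.73 ± 0.17 (1.65-fold higher, limma adjusted p = 0.269), and KD3010 differed from GW1516 by -0.64 ± 0.17 (1.56-fold lower, adjusted p = 0.19). The dimmer probe of Itga5 read 7.81 and 7.66 with DMSO, 7.70 and 7.38 with KD3010, and 7.67 and 7.55 with GW1516. It did not carry the GW1516 difference, with -0.12 ± 0.18, and the probes disagree in sign.

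**Figure D3:**
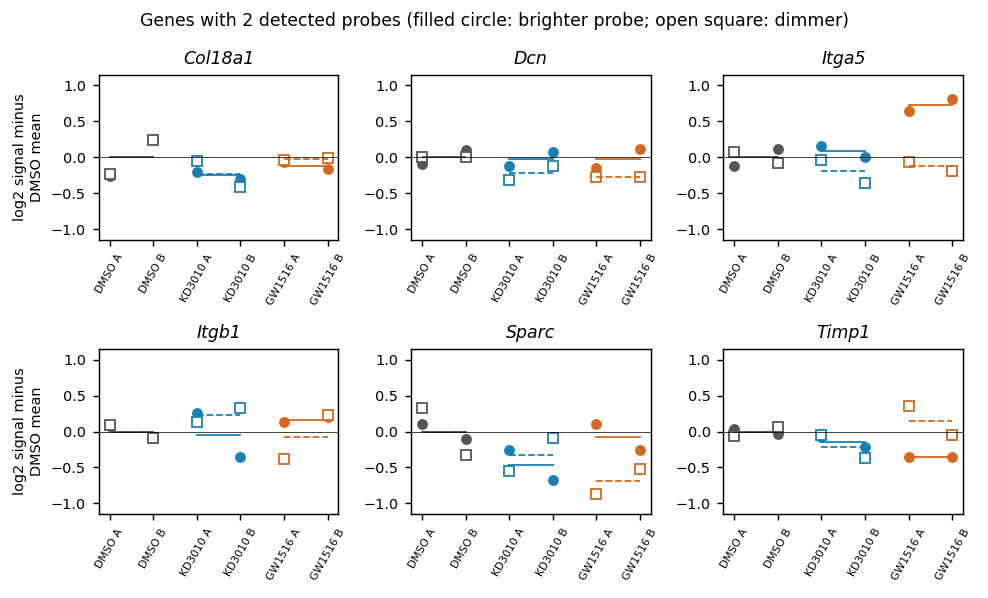
Log2 signal minus the mean of the DMSO arrays (vertical axes) on the 6 arrays (horizontal axes) for the 6 tested genes with 2 detected probes. Filled circles and solid lines are the brighter probe and its group mean, open squares and dashed lines the dimmer. The GW1516 means of Itga5 are 0.73 and -0.12, and those of Sparc are -0.07 and -0.69.

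Itgb1, the beta subunit common to these receptors, read 6.70 and 6.54 with DMSO, 6.88 and 6.26 with KD3010, and 6.75 and 6.82 with GW1516. The KD3010 arrays lay on both sides of DMSO and were 0.62 apart, the widest gap among the 21 genes in that group. Its differences were -0.05 ± 0.21 for KD3010 and 0.16 ± 0.21 for GW1516. The dimmer Itgb1 probe had the opposite signs, 0.23 ± 0.22 and -0.08 ± 0.22. Both Itgb1 probes were near background. The brighter had detection p-values between 0.00752 and 0.0476, and the dimmer was not detected on array A of GW1516 (detection p-value 0.0952). The differences of Itgav, the subunit of vitronectin receptors, were -0.16 ± 0.21 for KD3010 and -0.14 ± 0.21 for GW1516. Itga2 read 6.65 and 6.21 with DMSO, 5.72 and 5.53 with KD3010, and 5.55 and 5.87 with GW1516. The 4 treated arrays lay below both DMSO arrays and below detection. With undetected arrays set at the lowest detected signal, the DMSO mean of Itga2 lay 1.11-fold above that floor for KD3010 and 1.19-fold above it for GW1516. Its choice through the DMSO arrays favours such a result. DMSO array B, at 6.21, lay below the KD3010 floor of 6.27. Limma's test was on the measured signals and not on these floors. There the differences were -0.80 ± 0.20 (adjusted p = 0.203) and -0.72 ± 0.20 (adjusted p = 0.368), for a gene that was tested because DMSO detected it.

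The cell surface proteoglycans bind matrix proteins and growth factors through heparan sulfate chains. Gpc1 encodes glypican-1, which is tied to the membrane by a lipid anchor. It read 9.37 and 9.07 with DMSO, 9.59 and 9.83 with KD3010, and 8.67 and 8.89 with GW1516. The 3 groups did not overlap, with KD3010 above DMSO and GW1516 below it. KD3010 differed from DMSO by 0.49 ± 0.18 (1.40-fold higher, limma adjusted p = 0.359) and GW1516 by -0.44 ± 0.18 (1.36-fold lower, adjusted p = 0.502), the latter -0.29 without array A of DMSO. Between the compounds the difference was 0.93 ± 0.18 (1.90-fold, 95% interval 0.51 to 1.34, adjusted p = 0.146). It had the smallest p of the 21 genes in that comparison and did not pass the threshold over all features. In 4 of 16 other ways of processing it did pass, with adjusted p between 0.005 and 0.406 over all 16.

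Sdc4 encodes syndecan-4, a transmembrane proteoglycan of focal adhesions. It read 11.55 and 11.35 with DMSO, 11.49 and 11.66 with KD3010, and 12.13 and 11.86 with GW1516. Both GW1516 arrays lay above the other 4, and DMSO and KD3010 overlapped. GW1516 differed from DMSO by 0.54 ± 0.18 (1.46-fold higher, limma adjusted p = 0.418), and KD3010 from GW1516 by -0.42 ± 0.18 (1.34-fold lower, adjusted p = 0.336). Sdc2, the related syndecan that hepatocytes also make, differed by 0.11 ± 0.17 and 0.16 ± 0.17 from DMSO.

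Vtn encodes vitronectin, an adhesion protein that the liver secretes into plasma. It read 14.26 and 14.21 with DMSO, 14.23 and 14.21 with KD3010, and 13.56 and 14.44 with GW1516. The DMSO and KD3010 arrays were nearly equal, and the GW1516 arrays, 0.88 apart, lay on either side of them. The differences were -0.01 ± 0.25 and -0.24 ± 0.25, so a shift with GW1516 could not be seen against the gap between its own arrays.

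The counts over the 21 genes follow, beginning with KD3010 against DMSO. At an unadjusted p below 0.05, 6 genes were lower (Col4a1, Itga2, Lamc1, Mmp9, Nid1 and Sparc), where 6.76% of all features were, and 2 were higher (Gpc1 and Itga3), where 5.44% were. Both KD3010 arrays lay below both DMSO arrays in 9 genes, against 22.6% of all features, and above them in 2, against 21.4%. The log2 difference was below 0 in 15 of 21, against 50.2% of all features, with a median of -0.15 beside 0 for all features and a range from -0.80 to 0.63. Of the 6 genes with low p, Itga2 entered only through its DMSO arrays. Without array B of DMSO the differences of these 6 lay between -1.01 (Itga2) and -0.37 (Lamc1). Those of Gpc1 and Itga3 were then 0.34 and 0.52.

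With GW1516 against DMSO, 4 genes were lower at that unadjusted p (Gpc1, Itga2, Lamc1 and Nid1), where 4.83% of features were, and 2 were higher (Itga5 and Sdc4), where 4.69% were. The GW1516 arrays were both higher than either DMSO array in 6 genes, against 20.7%, and both lower in 5, against 19.8%. The difference was below 0 in 12 of 21, against 49.4%, with a median of -0.02 and a range from -0.72 to 0.73. Without array A of DMSO, Gpc1 and Itga2 shrank to -0.29 and -0.49, while Lamc1 and Nid1 grew to -0.45 and -0.60. Without array A of GW1516 the 4 lower genes lay between -0.57 (Itga2) and -0.20 (Nid1), and Itga5 and Sdc4 lay at 0.82 and 0.41.

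Set directly against GW1516, KD3010 gave 3 lower genes at that unadjusted p (Itga5, Mmp9 and Sdc4), where 7.78% of features were lower, and 2 higher genes (Gpc1 and Itga3), where 6.14% were higher. Both arrays lay below those of GW1516 in 8 genes, against 24.3%, and above them in 3, against 21.0%. The difference was below 0 in 17 of 21, against 50.7%, with a median of -0.09. Without array B of GW1516 the differences of Itga5, Mmp9 and Sdc4 were -0.56, -0.73 and -0.55. Without array B of KD3010 those of Gpc1 and Itga3 were 0.81 and 0.42. The comparisons share arrays, so their counts are not independent.

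**Figure D4:**
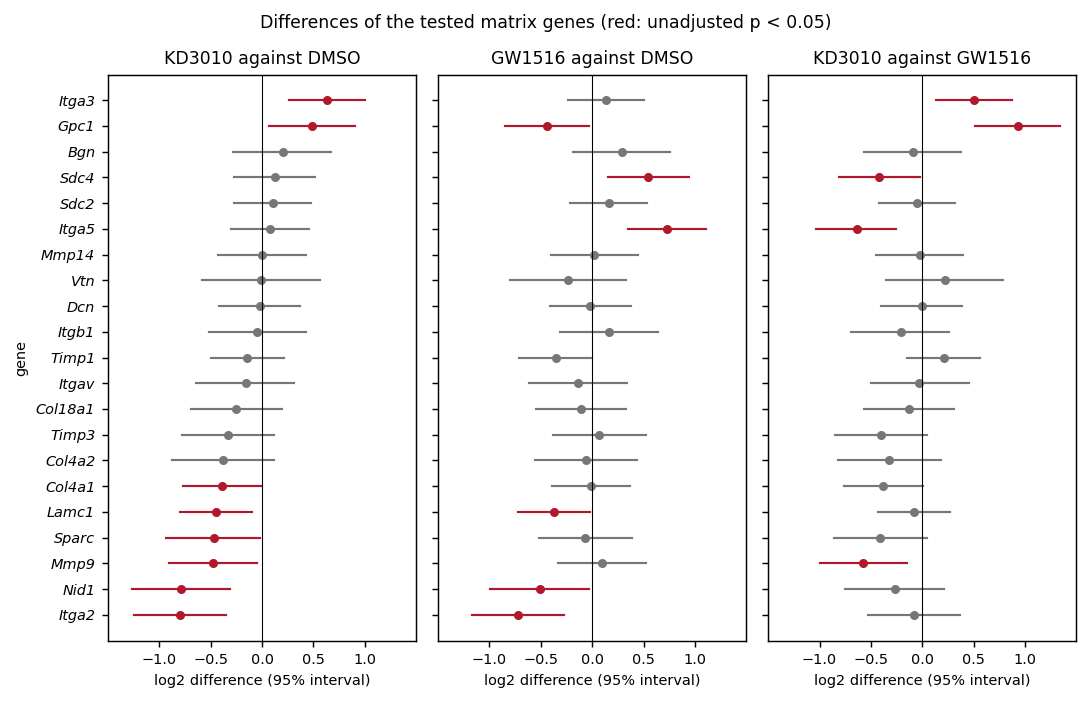
Log2 difference (horizontal axes) of the 21 tested genes in the 3 comparisons, with 95% confidence intervals. Red marks an unadjusted p below 0.05 and no gene passed the adjusted threshold. Nid1 lies at -0.79 with KD3010 and at -0.51 with GW1516, and Gpc1 at 0.49 and -0.44.

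**Figure D5:**
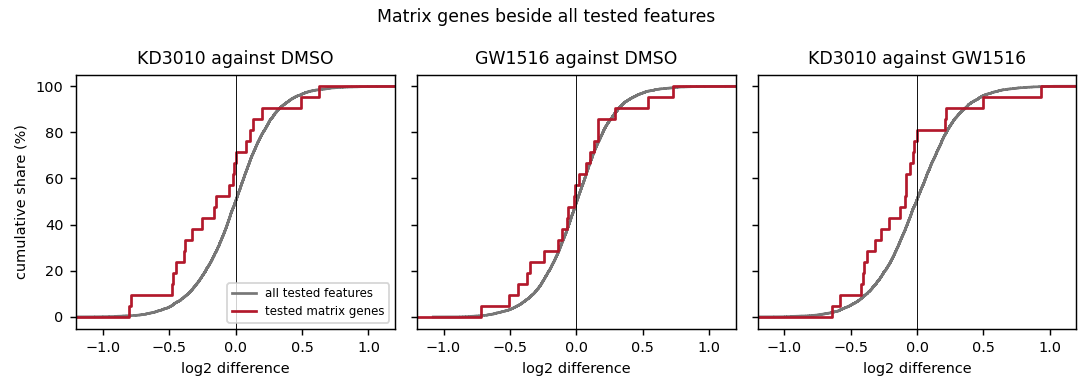
Cumulative share in percent (vertical axis) of the 21 tested matrix genes (red) and of all 8058 tested features (grey) with a log2 difference up to the value on the horizontal axis, for each comparison. The red line lies left of the grey one over most negative values for KD3010 against DMSO, with medians of -0.15 and 0, and close to it for GW1516, with a median of -0.02.

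Markers of cell types are given beside these genes. No tested marker passed the threshold in any comparison, and the smallest adjusted p against DMSO in limma's test was 0.251, for Vim with KD3010. Between the compounds the smallest was also that of Vim, which was higher with KD3010 than with GW1516 by 1.35 ± 0.23 (limma adjusted p = 0.146). The summed linear signal, after the same background correction and normalization, of the 17 stellate cell and fibroblast markers was 4584 to 4820 on the DMSO arrays, 4994 to 5497 with KD3010 and 4028 to 4969 with GW1516. KD3010 was above DMSO in that sum. A sum of linear signals rests on its brightest members, here Dcn and Vim, and 10 of the 17 markers were detected on no array. The 4 tested members of the list did not move together. With KD3010 Vim differed by 0.80, Reln by 0.22, Dcn by -0.02 and Acta2 by -0.27, and with GW1516 Acta2 differed by 0.14, Reln by 0.13, Dcn by -0.02 and Vim by -0.55. The 12 sinusoidal endothelial markers summed to 1989 to 2238, 1977 to 2022 and 2061 to 2236, and each compound overlapped DMSO, with Stab2, Kdr, Tie1 and Ehd3 detected on no array. The 8 tested members ranged from -0.55 (Lyve1) to 0.29 (Eng) with KD3010 and from -0.53 (Lyve1) to 0.34 (Eng) with GW1516.

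The 4 cholangiocyte markers summed to 776 to 911.6 with DMSO, 539.4 to 696.7 with KD3010 and 793.3 to 855.1 with GW1516, lowest with KD3010, with Krt19, Krt7 and Cftr detected on no array. Sox9 was the only one tested, and it differed by -0.48 ± 0.20 with KD3010 (limma adjusted p = 0.38). The 8 Kupffer cell markers summed to 251 to 359.4, 314 to 324.7 and 272 to 362.7, which overlapped, and 6 of them were detected on no array. Hepatocyte markers summed to 255700 to 260600, 253400 to 257000 and 268600 to 273200, highest with GW1516. The part of these markers in the differences of the matrix genes was not tested.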

How the data were processed

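Per the file headers, the first deposited table gives each probe an unnormalized linear intensity (the average signal of its beads) and a detection p-value. The submitters' processing notes name GenomeStudio without a version. In the second deposited table the authors had normalized the intensities, by a method that is not given in the labels or headers, and its values are equal to the series matrix values (largest difference 0, medians 257.8 to 257.9, not centred). Its 1 unnamed column and 30 named columns (bead counts, bead errors and repeated detection p-values) were not used. RNA was extracted with Trizol and amplified to biotinylated cRNA, per the labels' protocols.

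The deposited intensities were background-corrected by normexp on the detection p-values (offset 16), quantile-normalized and log2-transformed with limma 3.58.1 under R 4.3.3. A total of 10530 probes passed detection (p below 0.05 on both arrays of a group). The brightest of these stood for its gene, which left 8058 features (7457 named genes, 601 unnamed probes). Symbols came from the platform annotation, updated by Entrez identifier (23962 probes) or accession (9), with 7 kept as on the array. 1719 of 25697 probes had no symbol and 0 had several. One fit over all 6 arrays used lmFit and eBayes (3 residual and 6.54 prior degrees of freedom). The 2 arrays per group limit the precision. The fit was tested on simulated data.

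Members and lists were chosen with earlier results of these data known. Array values are printed for tested members with an unadjusted p below 0.05 in any comparison, for the 6 brightest, and for a fixed set of 15 (Col1a1, Col1a2, Col3a1, Col4a1, Col4a2, Col18a1, Fn1, Sparc, Timp1, Timp3, Mmp14, Spp1, Vtn, Itgb1 and Sdc4). Of a further list of matrix genes, those called or else the 3 with the smallest p in each comparison are named. Alternatives covered background, normalization, detection, probes, variance model, replicate block and each array left out.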

Additional observations from a re-analysis of the deposited data

Results flagged for a closer look

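Gpc1, the glypican-1 gene, moved to opposite sides of DMSO with the compounds: both KD3010 arrays lay above both DMSO arrays and both GW1516 arrays below them. The difference between the compounds was 0.93 ± 0.18 on the log2 scale, and the test of that difference itself gave an adjusted p of 0.146 in limma over all features, so it did not pass. Its lowest and highest values with 1 array left out were 0.81 and 1.04.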

How the results depend on the processing

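All 19 gene differences with an unadjusted p below 0.05 kept their sign under the alternatives run, 16 for each and 15 for Itga2, which has no value when all 6 arrays must detect a probe. The alternatives read the brightest probe of a gene or the mean of its probes, and none read a dimmer probe alone. The sign of Itga5 with GW1516 against DMSO therefore depends on the probe, since its dimmer probe gave -0.12. The count of called genes moved from 0 to 1 with KD3010 against DMSO (Nid1) when eBayes used trend and robust options (Nid1 adjusted p = 0.0466) or the authors' values had a replicate block (adjusted p = 0.0177). It also moved from 0 to 1 between the compounds (Gpc1) without background correction (adjusted p = 0.021), with the authors' normalized values (0.0149), with trend and robust (0.00672) and with the replicate block (0.005). GW1516 against DMSO kept 0 called genes throughout. The cause was not tested. The block was fitted on the series matrix alone, whose columns have replicate numbers in their labels. The authors' lettered columns equal these in order (largest difference 0), so array A there is replicate 1 and array B replicate 2. The unnormalized columns carry the same letters, but the block was not fitted on them. Same-numbered arrays did not deviate together (r = -0.00644, -0.00109 and 0.00946), so the numbers give no pairing; on the authors' values the block moved the calls over all features from 32 to 38, 12 to 20 and 39 to 45. Over the alternatives that kept all 6 arrays those calls ranged from 6 to 49, 2 to 20 and 0 to 57. The genes higher at unadjusted p below 0.05 fell from 2 to 1 under median scaling with KD3010 and from 2 to 1 with GW1516 when the probes of a gene were averaged. Median scaling shifted the median of all features by -0.12, -0.09 and -0.03. At a detection p below 0.01, 19 genes were detected, and 20 when all 6 arrays had to detect them.

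With 1 array left out, the lone array is assumed to vary like the others. The genes lower then numbered 3 to 5 for KD3010, 0 to 4 for GW1516 and 2 to 5 between the compounds, and those higher 1 to 2, 1 to 2 and 1 to 3. Of the 19 differences above, 4 moved by over 1.5 times, as given in the text. Differences near 0 changed sign. With KD3010 against DMSO the ranges were -0.51 to 0.02 for Col18a1, -0.12 to 0.08 for Dcn, -0.04 to 0.20 for Itga5, -0.36 to 0.26 for Itgb1 and -0.04 to 0.01 for Vtn. With GW1516 they were -0.06 to 0.04 for Col4a1, -0.36 to 0.24 for Col4a2, -0.38 to 0.15 for Col18a1, -0.25 to 0.11 for Sparc, -0.15 to 0.11 for Dcn, -0.03 to 0.17 for Timp3, -0.06 to 0.25 for Mmp9, -0.22 to 0.27 for Mmp14 and -0.68 to 0.20 for Vtn. Between the compounds they were -0.59 to 0.05 for Nid1, -0.27 to 0.22 for Mmp14, -0.24 to 0.08 for Itga2, -0.53 to 0.10 for Itgb1 and -0.21 to 0.67 for Vtn. Median scaling turned Itga5 with KD3010 to -0.08 and, with GW1516, Timp3 to -0.03 and Mmp14 to -0.08. Averaging probes turned Itga5 to -0.06 and Itgb1 to 0.09 with KD3010, and Timp1 to -0.08 and Itgb1 to 0.05 between the compounds. Signals near background limit Itga2, Itgb1 and the 16 undetected genes.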

Other observations

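A further list of 86 matrix genes (other collagens, laminins, ADAM and ADAMTS proteases, the plasminogen system, other integrins and syndecans) had a named probe for 75, of which 33 were detected and tested. In limma's test 0 of the 33 were called in each of the 3 comparisons, with median log2 differences of -0.03 for KD3010 against DMSO, 0.09 for GW1516 against DMSO and -0.15 for KD3010 against GW1516, where the medians of all features were 0. At an unadjusted p below 0.05, 1 of the 33 was higher with KD3010 and 0 were lower, where 5.44% and 6.76% of all features were. With GW1516 1 was higher and 0 were lower, against 4.69% and 4.83%, and between the compounds 0 were higher and 0 lower, against 6.14% and 7.78%.

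The gene higher with KD3010 was Itga7, the alpha subunit of a laminin receptor best known from muscle. It read 7.10 and 6.81 with DMSO, 7.71 and 7.62 with KD3010, and 6.67 and 7.73 with GW1516, whose arrays lay on both sides of the rest. KD3010 differed from DMSO by 0.71 ± 0.29 (limma adjusted p = 0.383). The gene higher with GW1516 was Sdc1, the main syndecan of hepatocytes, which takes up remnant lipoproteins. It read 9.68 and 9.73 with DMSO, 10.00 and 9.98 with KD3010, and 10.25 and 10.07 with GW1516, so that the 3 groups did not overlap and both compounds lay above DMSO. The difference was 0.46 ± 0.16 with GW1516 (adjusted p = 0.424) and 0.29 ± 0.16 with KD3010 (adjusted p = 0.509).

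The next smallest p-values with KD3010 and GW1516 belonged to genes of different roles. Adam17, the sheddase that releases TNF and also cuts syndecans, differed by -0.39 ± 0.20 with KD3010 (limma adjusted p = 0.479). Gpc3, a glypican of fetal liver, differed by 0.37 ± 0.17 with GW1516 (adjusted p = 0.544), and Col7a1, the anchoring fibril collagen, by 0.48 ± 0.26 (adjusted p = 0.604). Col7a1 read 5.82 and 5.67 with DMSO and 6.29 and 6.15 with GW1516, and passed detection only through GW1516. Its GW1516 difference is thus that of a gene tested through the group in which it was high. Between the compounds the smallest p-values were those of Vcl, a cytoskeletal linker of focal adhesions (-0.29 ± 0.16, adjusted p = 0.474), Itga7 (0.46 ± 0.29, adjusted p = 0.519) and the collagenase Mmp13 (-0.29 ± 0.19, adjusted p = 0.541).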
